A study of Mus musculus with 3 samples.

Results

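The 123048 regions described here are stretches of the mouse genome that were listed as open chromatin in the sciATACv1 and the sciATACv2 library of a whole brain preparation, and that no peak of the sciATACv3 library touched. All peaks of the 3 libraries were merged wherever they shared at least 1 bp, which gave 825954 union regions. A region entered the set when it held a v1 peak and a v2 peak and no v3 peak, so the 3 peak lists themselves chose the members, and everything that follows from their presence or absence is a description. The v3-absent regions, as they are called from here on, made up 14.9% of all union regions (exact Clopper-Pearson 95% interval 14.8 to 14.97%, which covers counting error only). Of the 445270 regions that held both a v1 and a v2 peak, 27.6% lacked a v3 peak and 322222 held peaks of all 3 libraries.

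The assay was single-cell combinatorial indexed ATAC-seq, in which a transposase cuts accessible DNA and adds adapters in 96 tagmentation wells before nuclei are pooled and given a second index by PCR in 5184 nanowells. Nuclei came from whole brain of C57BL6 mice, and each version was represented by 1 library with no treatment or genotype contrast. The sources used here do not give how versions 1, 2 and 3 differ, how many animals and nuclei each library held, or the animals' age and sex. With 1 library per version there is no replicate spread, so no difference between versions was tested and no p-value is given. The lists held 622754 peaks for v1, 850991 for v2 and 512023 for v3, without heights or read counts, so the depth behind each peak is unknown. Absence from v3 therefore means that no peak was listed there, and fewer nuclei with an open site and a shallower library cannot be told apart. Peaks of both v1 and v2 lay within 1 kb of an end of all 13 excitatory neuron genes, all 13 inhibitory neuron genes and all 12 astrocyte genes on marker lists. In the other brain lists this held for 11 of 12 genes (cerebellar, endothelial, ependymal), 13 of 14 (microglia) or all genes. Lists of other tissues ran from 4 of 10 hepatocyte genes over 8 of 10 endocrine pancreas genes to 10 of 10 skeletal muscle genes. The share over all protein-coding genes was 80.1%. Brain lists thus held such peaks more often than most lists of other tissues. A peak at a gene end alone does not mark a brain gene.

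Open chromatin marks DNA that transcription factors and the transcription machinery can reach. At the start of a gene it forms the promoter, and promoters rich in the dinucleotide CG are commonly open in most cell types, whereas enhancers lie within and between genes and are often open in only a few cell types. A peak caller run on a mixed tissue such as brain lists a site when enough of its nuclei, pooled, carry cuts there.

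Few of the v3-absent regions lay over a gene start, and over all widths those starts were poorer in CG than the starts open in all 3 libraries. The promoters below show the range, each printed as the 250 bases before the start, 5′ to 3′ on the strand of the gene, with every CG in capitals (RefSeq, GRCm38.p6, the patch release of mm10). The first is Ivl, involucrin of the keratinocyte envelope (chr3:92573736-92573985, minus strand), the second Klf1, a transcription factor of red cell precursors (chr8:84901732-84901981, plus strand), and the third Ddx4, a germ cell RNA helicase (chr13:112652311-112652560, minus strand). The last, for contrast, is Sdha, a subunit of mitochondrial complex II and a housekeeping gene whose start was open in all 3 libraries (chr13:74350241-74350490, minus strand).
Ivl: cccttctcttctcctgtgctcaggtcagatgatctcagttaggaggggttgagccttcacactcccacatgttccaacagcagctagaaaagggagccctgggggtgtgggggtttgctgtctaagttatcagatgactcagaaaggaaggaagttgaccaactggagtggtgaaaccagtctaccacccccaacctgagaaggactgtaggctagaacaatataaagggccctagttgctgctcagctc
Klf1: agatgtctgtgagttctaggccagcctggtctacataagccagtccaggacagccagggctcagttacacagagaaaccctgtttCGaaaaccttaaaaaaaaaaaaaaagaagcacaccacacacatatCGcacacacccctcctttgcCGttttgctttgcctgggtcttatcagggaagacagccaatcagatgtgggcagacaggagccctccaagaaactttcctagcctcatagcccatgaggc
Ddx4: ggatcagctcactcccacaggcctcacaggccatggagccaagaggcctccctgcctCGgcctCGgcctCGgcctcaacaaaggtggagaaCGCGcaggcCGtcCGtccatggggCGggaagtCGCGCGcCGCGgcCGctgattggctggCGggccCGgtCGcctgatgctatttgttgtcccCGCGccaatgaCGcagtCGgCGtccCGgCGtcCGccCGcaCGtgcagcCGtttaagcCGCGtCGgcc
Sdha: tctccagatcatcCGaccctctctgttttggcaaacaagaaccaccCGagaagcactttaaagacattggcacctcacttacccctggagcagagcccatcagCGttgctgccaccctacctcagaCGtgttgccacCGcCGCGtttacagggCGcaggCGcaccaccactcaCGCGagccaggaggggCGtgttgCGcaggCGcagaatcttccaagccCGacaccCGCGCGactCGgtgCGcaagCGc
The Ivl stretch holds 0 CG dinucleotides and the Klf1 stretch 3, against 21 in Sdha. Ddx4 is the exception among them, with 31. The v3-absent region spanned 92573537 to 92574087 at Ivl, 84901833 to 84902352 at Klf1 and 112651871 to 112652739 at Ddx4. The nearest v3 peak was 7445 bases from the Ivl region and 7287 from the Ddx4 region, but only 90 from the Klf1 region, so the Klf1 start itself had a v3 peak within 1 kb.

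Over all 21045 starts of 17274 protein-coding genes with a promoter sequence in the RefSeq table, 335 starts of 316 genes (1.59%) fell in a v3-absent region. By comparison 15145 starts (71.96%) fell in a region of all 3 libraries and 4512 (21.4%) in none. The promoters in v3-absent regions were poor in CG. Their median ratio of observed to expected CG was 0.207 over the 300-base window from 250 bases before to 50 after the start, against 0.727 for starts open in all 3 libraries. A ratio of at least 0.6 was reached by 6.57% of them (4.16 to 9.77%) and by 65.4% (64.7 to 66.2%) of the starts open in all 3. Their median GC content was 51.3%, against 60.7%. The gap depended on the width of the v2 peak. Where the widest v2 peak of the region was 500 bp, the median GC content was 49.3% for the 119 v3-absent starts and for the 344 starts open in all 3, the CG ratio reached 0.6 in 5.88% (2.40 to 11.7%) and 14.5% (10.98 to 18.7%), and these intervals overlapped. In each of the 4 classes of wider v2 peaks the intervals of that share did not overlap, as at over 1500 bp with 7.69% (0.946 to 25.1%) and 68.7% (67.7 to 69.8%). Starts in 2 other classes of regions had values similar to the v3-absent ones. The 250 starts in regions of v2 and v3 without v1 had a median ratio of 0.247 and a median GC content of 51.5%, and the 622 starts in regions of v2 alone had 0.222 and 52.7%.

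Read in the other direction, the share of starts open in v1 and v2 that lacked a v3 peak fell with GC content. It was 8.45% (6.57 to 10.7%) of 757 starts under 45% GC, 3.48% (2.77 to 4.31%) of 2327 starts between 50 and 55% GC, and 0.273% (0.149 to 0.458%) of 5123 starts at 65% GC and over. The intervals of these 3 classes did not overlap. The share of all starts with no peak in any library fell likewise, with 72.7%, 20.2% and 0.655% in the same classes. Lower GC content thus went with missing peaks in all 3 lists. These classes were not matched by v2 peak width.

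**Figure D1:**
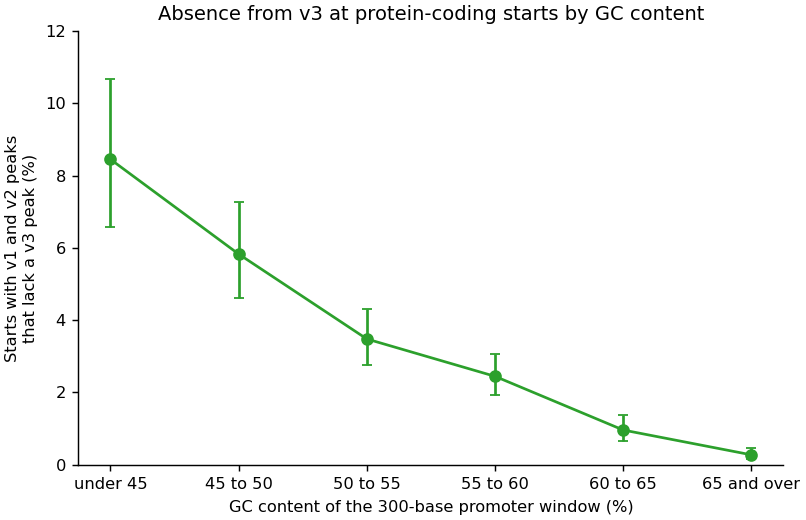
Protein-coding starts that lie in a region with v1 and v2 peaks, by GC content of the 300-base promoter window (horizontal axis, percent), and the percentage whose region lacks a v3 peak (vertical axis). Points are shares of starts and bars are exact 95% intervals; the share falls from 8.45% under 45% GC to 0.273% at 65% and over.

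A set of 10 short motifs was searched on both strands of the same windows, and a match is a description of the letters only. The SP/KLF letters GGGCGG, which contain a CG, were present in 19.4% of the starts in v3-absent regions, 61.3% of the starts open in all 3 libraries and 46.7% of all starts. The ETS letters CCGGAAG, also with a CG, were present in 2.69%, 15.3% and 11.7%. The TATA letters TATAAA were present in 20.9%, 7.16% and 12.7%, and the E-box CAGATG in 20.3%, 11.96% and 14.4%. The starts with no peak in any library held TATAAA in 29.3% and GGGCGG in 5.96% of windows, so the v3-absent starts lay between these and the starts open in all 3. At a widest v2 peak of 500 bp, however, GGGCGG was present in 20.2% of v3-absent starts and 19.5% of starts open in all 3, and TATAAA in 26.1% and 16.9%. Several v3-absent starts with TATAAA were neighbours in the keratin-associated protein gene cluster on chromosome 16, such as Krtap20-2, Krtap22-2 and Krtap6-3. Related neighbours are not independent, and the TATAAA share without this cluster was not computed. Over all widths, starts in regions of v2 alone and of v2 and v3 without v1 were similar to the v3-absent ones. GGGCGG was present in 21.4% and 19.2% of them, TATAAA in 18.01% and 15.6%, and CCGGAAG in 4.98% and 3.2%. The intervals of these values overlapped those of the v3-absent starts. Regions of v2 alone also lack a v3 peak. The comparison with starts that hold one therefore rests on the 250 starts of v2 and v3 without v1. Similar motif shares were found there, but overlapping intervals do not show that the shares are equal. The other motifs were AP-1 (TGANTCA), in 8.66% of the v3-absent starts and 7.04% of all starts, CRE (TGACGTCA, 1.19% and 2.26%), the E-box CAGCTG (20.3% and 15.7%), SOX (ACAATG, 12.8% and 10.5%), PU.1 (GAGGAAGT, 5.67% and 3.15%) and homeobox (TAATTA, 5.97% and 4.47%).

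Hairpins of microRNAs, short RNAs that pair with messenger RNAs through a seed at bases 2 to 8, were also looked up. Of 1005 hairpins in the RefSeq table, 47 (4.68%) fell in a v3-absent region and 495 (49.3%) in a region of all 3 libraries. The 2 hairpins Mir322 and Mir503 shared 1 region on the X chromosome (chrX:53053802-53054365), 2167 bases from the nearest v3 peak. Mirlet7b, a member of the abundant let-7 family, lay in a region on chromosome 15 (chr15:85706996-85707956) only 160 bases from one. Mir218-2 lay in a region of 1280 bp on chromosome 11 (chr11:35616466-35617745), 306 bases from one. Their main arms are shown with the seed in capitals, and no 2 of these 4 seeds are identical.
mmu-miR-322-5p: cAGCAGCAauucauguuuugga
mmu-miR-503-5p: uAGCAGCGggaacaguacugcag
mmu-let-7b-5p: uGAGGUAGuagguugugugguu
mmu-miR-218-5p: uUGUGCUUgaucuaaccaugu

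The v3-absent regions were narrow, mostly simple pairings of 1 v1 peak with 1 v2 peak. This form held for 94.3% of them. Their median width was 618 bp (quartiles 518 and 905 bp), against 1365 bp for regions of all 3 libraries, which are wider in part by construction because 3 lists are merged. Of the v1 peaks inside v3-absent regions 79.8% had the shortest width in the lists, 500 bp, compared with 59.8% of the whole v1 list. For v2 the values were 60.2% and 53.1%. The paired v1 and v2 midpoints were a median of 39 bp apart, and the pairs shared a median of 490 bases. The v3-absent regions took up 20.5% of the v1 list and 14.9% of the v2 list.

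A v3 peak was often close by. The nearest one was a median of 1309 bases away, within 500 bp for 27.4% of v3-absent regions, within 1 kb for 43.3% and within 5 kb for 78.1%. No v3 peak lay within 100 kb of 264 regions (0.215%). Regions of v2 alone had similar values, with a median of 1339 bases to the nearest v3 peak and 25.1% within 500 bp. For regions of v1 alone these values were 2412 bases and 18.6%. At the edge of the rule, 48 v3-absent regions abutted a v3 peak without sharing a base and 692 lay within 10 bases of one. On the other side, 11 regions of all 3 libraries shared a single base between the v3 peak and the v1 or v2 peaks, and 94 shared at most 10.

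The wider the v2 peak in a region, the less often v3 lacked a peak there. Among regions of v1 and v2 grouped by their widest v2 peak, 46.3% lacked v3 where that peak was 500 bp and 4.29% where it was over 1500 bp. The classes between gave 29.6%, 24.6% and 13.3%. This measure is not free of the v3 list, because a v3 peak can join neighbouring v2 peaks into 1 region. The 322222 regions of all 3 libraries held 447649 v2 peaks, and the 123048 v3-absent regions held 126729. Part of the fall, and of the contrasts within these classes, can therefore follow from the merging. Positions relative to genes were therefore also compared within these classes.

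The v3-absent regions lay outside genes and away from gene ends more often than the regions shared by all 3 libraries. The midpoint was within a gene span for 56.1% of them (55.8 to 56.4%), for 71.5% of regions of all 3 libraries (71.4 to 71.7%) and for 61.7% of all union regions. The share was lower than in regions of all 3 libraries on 17 of 20 chromosomes, the exceptions being 7, 19 and X, and ranged from 46.4% on chromosome 3 to 76.5% on chromosome 7. Within the 5 classes of v2 peak width it was 54.98 to 60.6% for v3-absent regions and 69.0 to 75.2% for regions of all 3. Regions of v2 alone (52.3%) and v1 alone (45.4%) lay inside genes less often than the v3-absent regions. The gene table used here gives no exons, so exonic and intronic positions were not separated.

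Within 1 kb of an end of a protein-coding gene lay 2.52% of the v3-absent regions (2.43 to 2.61%), 8.39% of regions of all 3 libraries and 5.09% of all regions, and the first share was lower than the second on 20 of 20 chromosomes. Within 1 kb of a start, for the genes whose start was known, lay 855 v3-absent regions (0.695%) and 4.48% of regions of all 3 libraries. Regions of v1 alone (0.919%) and of v2 alone (0.905%) were closer in this respect to the v3-absent ones. In the class of v2 peaks of 500 bp the share at a start was 0.623% for v3-absent regions and 1.21% for regions of all 3, and for v2 peaks over 1500 bp it was 1.02% and 10.3%.

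The percentage of v1 and v2 regions that lacked v3 rose with distance from a protein-coding start. It was 2.48% (2.22 to 2.77%) for regions over the start, 21.0% up to 1 kb away, 20.05% at 1 to 5 kb, 21.3% at 5 to 20 kb, 23.2% at 20 to 100 kb, 32.0% at 100 to 500 kb and 41.2% (40.9 to 41.6%) beyond 500 kb. Over all widths, regions over the start thus stood apart from those just beside it. At a v2 peak width of 500 bp the value was 26.4% (22.3 to 30.7%) over the start, 32.7% (29.8 to 35.6%) up to 1 kb away, with overlapping intervals, 31.3% at 1 to 5 kb and 58.9% beyond 500 kb, and at widths over 1500 bp it was 0.349% and 7.55%. The start table holds 79.9% of protein-coding genes, so some distances can be overstated.

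**Figure D2:**
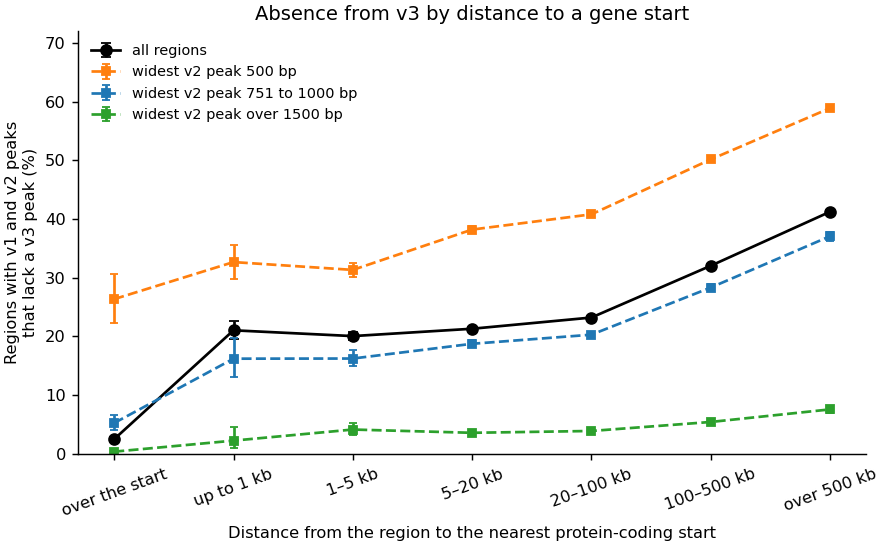
Percentage of regions with v1 and v2 peaks that lack a v3 peak (vertical axis) by distance from the nearest listed protein-coding start (horizontal axis, classes in kb). Black points are all such regions and coloured squares are regions whose widest v2 peak has the given width, with exact 95% intervals; in each of the series drawn the highest value is beyond 500 kb and the lowest over the start.

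Gene-poor stretches of most autosomes held the highest shares of v3-absent regions. In 2493 bins of 1 Mb with at least 50 regions, the median share of v3-absent regions was 12.4%, and by gene content it was 25% in bins without a protein-coding gene, 15.6% with 1 to 5 genes, 10.7% with 6 to 15, 8.96% with 16 to 30 and 9.63% with more. At least 2 times the overall share was reached in 212 bins (8.5%), and these held 17.7% of all v3-absent regions in 7.16% of the union regions. Of the 212 bins, 99 had no protein-coding gene (282 of all 2493 bins), 2 had more than 15 (405) and 0 lay on the X chromosome (141). Their median peak numbers were 198 for v1, 249.5 for v2 and 70 for v3, against 256, 354 and 207 over all bins. At most 0.5 times the overall share was found in 364 bins (14.6%), of which 65 lay on the X, against 141 of all 2493 bins.

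The 3 bins with the highest share were on chromosome 14 from 97000000 to 97999999, with 154 of 279 regions (55.2%) and the gene Dach1, on chromosome 8 from 52000000 to 52999999, with 127 of 232 (54.7%) and no gene, and on chromosome 15 from 15000000 to 15999999, with 148 of 286 (51.7%) and no gene. In the chromosome 14 bin the lists held 232 v1, 244 v2 and 39 v3 peaks. The 3 bins with the lowest share were all on the X chromosome. The bins from 78000000 to 78999999 and from 97000000 to 97999999 held 0 v3-absent regions among 62 and 63 regions, which allows shares of up to 5.78% and 5.69% by the exact interval, and the bin from 46000000 to 46999999 held 1 among 77.

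Chromosomes differed. The share was highest on chromosomes 3 (19.1%), 15 (18.5%) and 14 (17.96%) and lowest on X (8.94%), 11 (9.29%), 7 (9.45%), 9 (9.81%), 19 (10.6%) and 17 (11.4%). Over the 19 autosomes it ran against the number of protein-coding genes per Mb (Pearson r = -0.88, Spearman rho = -0.75), and without the 2 chromosomes farthest from the median gene density the values were -0.81 and -0.66. These points come from the same 3 lists and are a description. Chromosomes also differed at equal gene content. In bins without any protein-coding gene the share was 7.92% on X (16 bins), 10.5% on 19 (3), 12.6% on 9 (6), 12.9% on 7 (8), 14.7% on 11 (9) and 15.7% on 17 (10). It reached 30.2% on 8 (18 bins), 30.6% on 13 (6), 34.3% on 15 (11) and 35.2% on 14 (19), so some of these values rest on few bins. The lowest values were those on X, 19, 9, 7, 11 and 17. The same 6 chromosomes were also the lowest in bins with 1 to 5 and with 6 to 15 genes, but not in bins with over 15, where the range was 8.01 to 13.6%. The low share on X went with few v1 peaks. Its gene-free bins held 42.2 v1, 101.1 v2 and 33.1 v3 peaks per Mb, against 147, 213 and 83.3 over all gene-free bins. Counted only among regions of v1 and v2, 25.1% lacked v3 on the whole X, (24.2 to 26.0%), below the 27.6% of all chromosomes but above the values of chromosomes 7, 9, 11, 17 and 19, which ran from 18.1 to 21.5%.

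**Figure D3:**
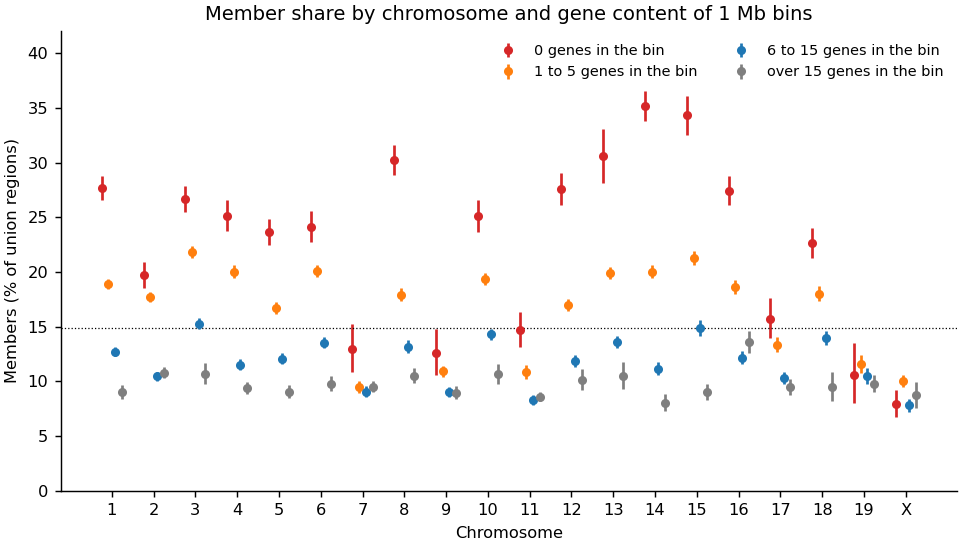
Share of union regions that are in v1 and v2 and absent from v3 (vertical axis, percent) on each chromosome (horizontal axis), in 1 Mb bins grouped by the number of protein-coding genes they hold (colours). Points are pooled shares with exact 95% intervals and the dotted line is the share over all regions, 14.9%; gene-free bins range from 7.92% on X to 35.2% on chromosome 14.

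A v3-absent region was followed by another more often than the overall share of 14.9%. Counting union regions in order along a chromosome, 60.6% had no v3-absent neighbour on either side, 23.9% formed pairs and the rest formed longer runs. After a v3-absent region the next region was of the same kind in 23.0% of cases (22.8 to 23.3%). After a region of all 3 libraries this was 12.9%, after one of v2 alone 15.2% and after one of v1 alone 20.3%. The longest run had 13 in 13539 bp of Slc44a5, which codes for a choline transporter-like protein (chr3:154049459-154062997). The next were runs of 11 on chromosome 8 (chr8:52248084-52300293), 1211390 bases from the nearest protein-coding gene, Aga, and on chromosome 10 (chr10:101377484-101428288), 253199 bases from Mgat4c. Between 2 consecutive v3 peaks, the most v3-absent regions were 37, on chromosome 15 (chr15:23661961-23901040, nearest gene Cdh18), where v1 had 55 peaks and v2 had 44.

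The widest v3-absent region was 4818 bp on chromosome 6 (chr6:58167451-58172268), built from 3 v1 and 2 v2 peaks, 42838 bases from the vomeronasal receptor gene Vmn1r27. The other 4 of the 5 widest were in Lmo3, a LIM-domain transcription cofactor (chr6:138578201-138582581, 4381 bp), in Cacna2d3, a calcium channel subunit (chr14:29345770-29349961, 4192 bp), in Gnb1l (chr16:18552787-18556959, 4173 bp), and 42245 bases from the olfactory receptor gene Olfr444 on chromosome 6 (chr6:42998677-43002795, 4119 bp). The Gnb1l region paired a v2 peak of 4173 bp with a v1 peak of 500 bp, while v1 peaks covered 3710 bases of the region near Olfr444. The 5 regions farthest from any v3 peak were all on the X, from 1432535 to 1646605 bases away, among the Btbd35f genes. That stretch, like the receptor gene families, holds near-identical copies, and the handling of reads that match several copies is unknown here, so these regions are uncertain.

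The largest numbers of v3-absent regions were in very long genes, but in unequal shares. Genes with many in their span were Lrp1b, an LDL receptor relative, with 314, Cntnap2, a contactin-associated protein of myelinated axons, with 269, Macrod2, an ADP-ribose hydrolase, with 241, Ccser1 with 200 and Pcdh15, a cadherin of inner ear hair cells, with 195. In windows of the span with 5 kb on each side, these were 31.4% of the regions of Lrp1b (28.5 to 34.3%), 25.3% for Cntnap2, 26.6% for Macrod2, 34.3% for Ccser1 and 28.8% for Pcdh15. The Lrp1b window (span chr2:40595290-42653598) held 873 v1, 996 v2 and 547 v3 peaks, and the Cntnap2 window 778, 1037 and 533.

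Genes of similar length differed widely. Pooled over genes it rose from 9.46% for spans up to 10 kb to 18.9% for the 59 spans over 1 Mb, yet 57 of those 59 ranged from 40.4% (176 of 436) in Naaladl2 to 5.04% (27 of 536) in Ptprt, a receptor tyrosine phosphatase. The Naaladl2 window held 331 v1, 404 v2 and 130 v3 peaks, and the Ptprt window 316, 563 and 367. Robo1 and Robo2, axon guidance receptors that lie side by side on chromosome 16, had 174 of 539 (32.3%) and 114 of 868 (13.1%). In Robo1 v3 had 300 peaks against 503 of v1 and 591 of v2, and in Robo2 it had 740 against 785 and 881. Erbb4, a neuregulin receptor of interneurons, had 176 of 493 (35.7%), while Dmd, the dystrophin gene on the X, had 18.1%.

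**Figure D4:**
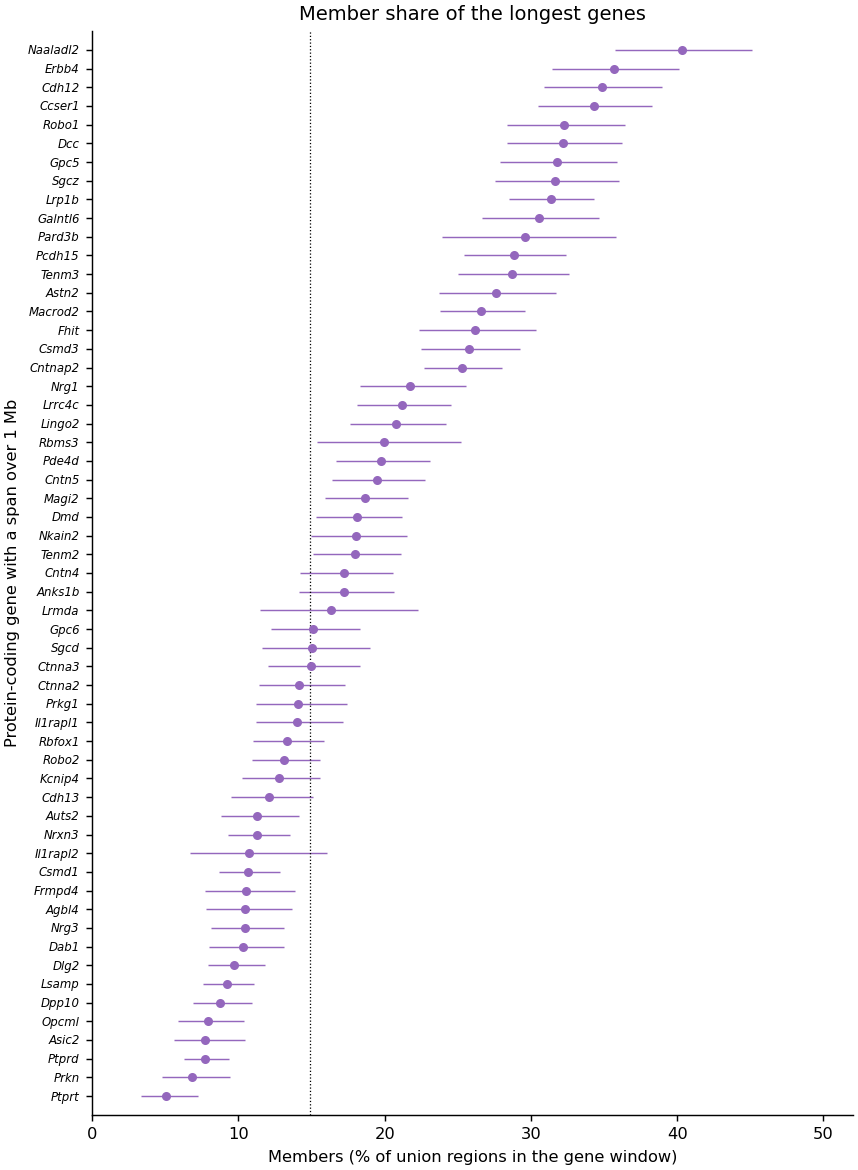
Share of union regions in the gene window that are v3-absent (horizontal axis, percent) for 57 of the 59 protein-coding genes with a span over 1 Mb (vertical axis, ordered by share). Bars are exact 95% intervals and the dotted line is the share over all regions, 14.9%; the genes plotted range from 5.04% in Ptprt to 40.4% in Naaladl2.

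Among 4148 genes with at least 30 regions in the window, the median share was 10.9%. A share at least 2 times that of all regions was reached by 187 genes (4.51%), and 1145 genes (27.6%) had at most 0.5 times that share. The 8 highest were Bche, butyrylcholinesterase, with 22 of 39 regions (56.4%, interval 39.6 to 72.2%), Spef2, a protein of cilia and sperm flagella, with 31 of 55 (56.4%), Dach1, a transcription cofactor, with 95 of 173 (54.9%), Spock3, a matrix proteoglycan, with 115 of 212 (54.2%), Fstl5, a follistatin-like protein, with 153 of 286 (53.5%), Kctd8, an auxiliary GABA-B receptor subunit, with 61 of 125 (48.8%), Klhl1 with 83 of 174 (47.7%) and Olfm3, an olfactomedin, with 57 of 120 (47.5%). The intervals of these 8 overlapped, so their order is not resolved. In the Bche window v1 had 31 peaks, v2 had 37 and v3 had 6, and in the Spef2 window the numbers were 48, 44 and 8. All 8 genes had a peak of each library within 1 kb of an end. No v3-absent region was found in 96 of the 4148 genes. The 6 of these with the most regions were Efcab6 (106 regions), Ubash3b (71), Qk, an RNA-binding protein of myelinating cells (71), Atp2c1, a Golgi calcium pump (65), Adam10, a membrane protease (64) and Pik3cb, a PI3 kinase subunit (62). A count of 0 allows up to 3.42% in Efcab6 and 5.78% in Pik3cb by the exact interval. In Qk the 3 lists were alike in number, with 92 v1, 85 v2 and 79 v3 peaks.

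Lists of marker genes gave no common share for brain or for other tissues. Over 15944 protein-coding genes with at least 5 regions in the window the median share was 9.38%, and 10 of 22 lists had a higher median. These were 7 of the 12 brain cell type lists and 3 of the 10 others. The lists differ in gene length, and a pooled share follows their longest genes, so both values are given. The medians also depended on the window, and 9 of the 22 lists stayed on 1 side of the median of all genes in every setting tried: the excitatory, striatal and hippocampal granule neuron, oligodendrocyte, endothelial, mural and fibroblast, immediate early, erythroid and skeletal muscle lists.

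Of the neuronal lists, the inhibitory neuron genes had the highest pooled share, 382 of 1159 regions (33.0%, interval 30.3 to 35.7%), at a median of 10% over 12 genes, which was 33.5% in the spans alone without flanks. Erbb4 and Adarb2, an RNA editing enzyme relative (92 of 277), held most of these, and the shares of single genes ran up to 39.2%. None were found in Dlx1 (9 regions) and Dlx2 (5), homeobox factors of interneuron precursors, or in the peptide genes Sst (4) and Vip (5). With so few regions, a count of 0 allows up to 33.6% in Dlx1 and 60.2% in Sst by the exact interval. The Erbb4 interval began at 31.5%, so these intervals overlapped. The excitatory neuron genes had a median of 2.74% and a pooled share of 14.5%. Among them Foxp2, a forkhead factor, had 103 of 277 regions (37.2%) with 203 v1, 279 v2 and 79 v3 peaks, and Grin2b, an NMDA receptor subunit also on chromosome 6, had 15 of 249 (6.02%) with 292, 319 and 253. The 2 genes show how far members of 1 list stood apart. The striatal list had a median of 20%, led by Rarb, a retinoic acid receptor (86 of 334), and Foxp1 (56 of 339). The hippocampal granule neuron list had a median of 15%, with Spock1 at 35 of 257 and Man1a at 18 of 92. In the cerebellar list, with a median of 8.33% (20% in the spans alone), Calb1, a calcium buffer, had 5 of 15 and Gabra6, a GABA-A subunit of granule cells, 4 of 9.

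Among glia, the astrocyte list had a median of 11.1%, with Slc4a4, a bicarbonate transporter, at 55 of 253, and Slc1a2, the main glutamate transporter, at 7 of 72. The oligodendrocyte list had 12.5%, with Ugt8a, an enzyme of myelin lipid synthesis, at 11 of 32. The precursor list had 8.21%, with Lhfpl3 at 72 of 230 and Vcan, a proteoglycan, at 18 of 57, while Cspg4, the NG2 proteoglycan, had 0 of 20. The microglia list had 8.19% (13.3% in the spans alone). In it P2ry12, a purine receptor of resting microglia, had 11 of 39 and 6 of the 14 genes had none. Of the vessel lists, the mural and fibroblast genes had a median of 30%, which was 18.5% in the spans alone, with Abcc9, a channel subunit of pericytes, at 8 of 29 and Col1a2, a fibrillar collagen, at 7 of 18. The endothelial genes had 1.85%, with none in Flt1 (45 regions), a VEGF receptor, or Pecam1 (29), and 8 of 43 in Tek, the angiopoietin receptor. The ependymal and choroid plexus list had 13.9%, with Tmem212 at 8 of 21 and Enpp2, the enzyme autotaxin, at 7 of 66.

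The 8 lists of other tissues had medians from 0 to 19.2%, against 1.85 to 30% for the brain lists. The erythroid list had a median of 19.2%, with Ank1, an ankyrin, at 22 of 101 and Slc4a1, the red cell anion exchanger, at 6 of 14. The keratinocyte list had 16.7%, the germ cell list 14.3% (4.55% in the spans alone), the lymphocyte list 9.30%, the intestinal list 5.26%, and the hepatocyte, skeletal muscle and endocrine pancreas lists 0%, but the endocrine pancreas list had 37.5% in the spans alone and 5.65% with 20 kb on each side. Small numbers stand behind several of these, such as 2 of 53 regions in the hepatocyte list. The housekeeping genes had a median of 6.79%, and the immediate early genes, which neurons switch on with activity, had 2 of 57 regions.

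**Figure D5:**
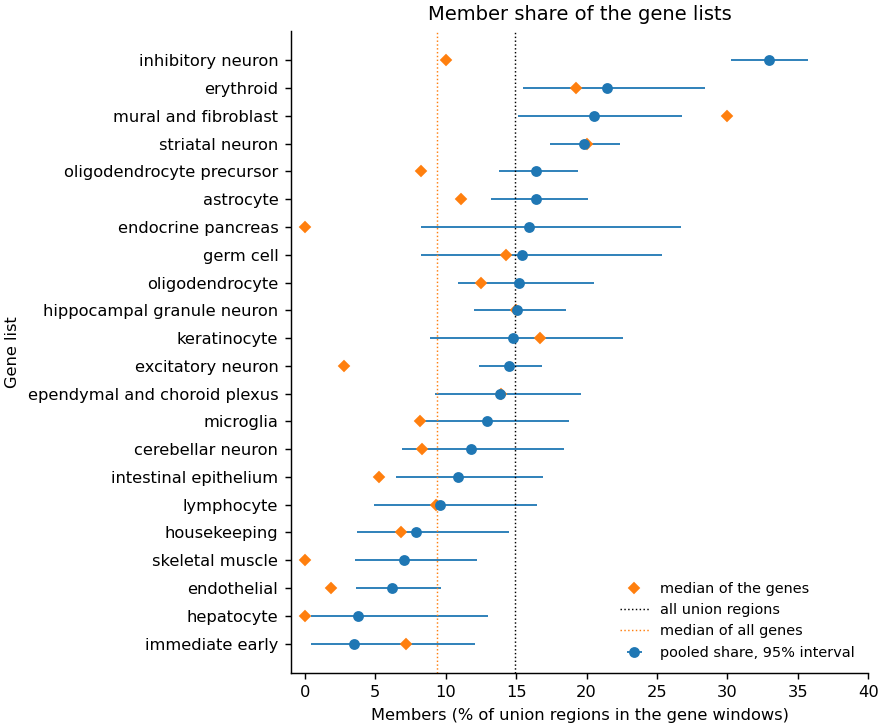
Share of union regions in the gene windows that are v3-absent (horizontal axis, percent) for 22 gene lists (vertical axis, ordered by pooled share). Circles are pooled shares with exact 95% intervals, diamonds are medians over genes with at least 5 regions, and dotted lines mark all regions (14.9%) and the median of all genes (9.38%); the pooled share of the inhibitory neuron list, 33.0%, is the highest.

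Few genes had v1 and v2 peaks near an end but no v3 peak near either end. Counted by region, 3102 v3-absent regions and 27036 regions of all 3 libraries lay within 1 kb of an end. A gene was counted only if v3 had no peak within 1 kb of either end. This held for 489 of 21631 protein-coding genes (2.26%), or 2.82% of the 17328 with v1 and v2 peaks there. The opposite, a v3 peak without a v1 or v2 peak, was found for 137. At the starts alone, 376 of 17274 genes (2.18%) had v1 and v2 peaks but no v3 peak. On the lists, 11 genes had v1 and v2 peaks near an end and no v3 peak near either end. These were Gabra6, Lum, a proteoglycan of fibroblasts, Tmem212, Ms4a1, the B cell antigen CD20, Slc4a1, Alas2, the heme synthesis enzyme of red cells, Ivl, Flg, the epidermal protein filaggrin, Ddx4, Slc30a8, a zinc transporter of pancreatic islets, and Sis, the sucrase of the gut. Of these, 8 came from lists of other tissues and 3 from brain lists. Among genes with v1 and v2 peaks at an end, they were 2 of 7 in the erythroid and in the keratinocyte list. They were 1 of 7 in the germ cell list and 1 of 8 in the lymphocyte, endocrine pancreas and intestinal lists. In the cerebellar and the ependymal list they were 1 of 11, and in the mural and fibroblast list 1 of 12. All other lists had none. At a known start, 8 list genes had v1 and v2 peaks and no v3 peak within 1 kb, out of 244 list genes, not all with a known start. They were Tmem212, Ivl and Ddx4 of those above, and Zp3, Alpi, Krt10, Lck and Acta1, which had a v3 peak within 1 kb of an end of the span. In the Slc30a8 window v1 had 21 peaks, v2 had 15 and v3 had 3, and 10 of 21 regions were v3-absent. In the Sis window the peak numbers were 8, 9 and 1, and in the Ivl window 4, 6 and 0. Ms4a1 had 1 peak of each library in its window and no v3-absent region, since its v1 and v2 peaks did not overlap.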

How the data were processed

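The deposited files were 1 list of peaks per library, with chromosome, start and end and no score or height. The submitters' processing notes name ArchR and MACS2 and the build mm10, but the sources used here do not give versions, thresholds or the role of each tool. Chromosomes 1 to 19 and X were used. The 3 lists were merged (overlap of at least 1 bp) with Python 3.11.15 and pandas 2.3.3, code first tested on simulated peaks. Regions were placed by midpoint in RefSeq gene spans of GRCm38.p6 (49554 genes, 21631 protein-coding). Gene windows were spans with 5 kb on each side, and windows of neighbours can share regions. Both gene ends were used in place of starts, since strand was known for 79.9% of protein-coding genes. The genome sequence was not used here, so member sequences beyond promoters and hairpins were not analysed. Shares have exact Clopper-Pearson 95% intervals (scipy 1.17.1).

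Members and lists were chosen with earlier results of these data known. Named genes are the 6 with the most members, the 8 highest and 6 lowest shares, the 2 leading genes of a list and list genes without a v3 peak at an end. Named regions are the 5 widest, the 5 farthest from v3, the 3 longest runs and the 3 highest and lowest bins. Genes over 1 Mb, genes without members and other examples were chosen after their values were seen, as was matching by v2 peak width, promoters included. Some genes that these rules name are not reported here.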

Additional observations from a re-analysis of the deposited data

How the results depend on the processing

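The share of union regions that were v3-absent, 14.9%, was 8.11% with only peaks wider than 500 bp, 13.7% where v1 and v2 peaks each had to cover at least 50% of the region, 10.8% where no v3 peak was allowed within 500 bp and 15.1% without chromosome X. The share inside gene spans, 56.1%, was 65.4% with only peaks wider than 500 bp, 49.7% with no v3 peak within 500 bp and 49.03% with protein-coding spans only. The share within 1 kb of a gene end, 2.52%, was 3.35% with only wider peaks, 2.41% with 50% cover, 2.05% with no v3 peak within 500 bp, 1.60% at 500 bp and 4.25% at 2 kb. The X held 1.76% of v3-absent regions, 1.48% with only wider peaks and 1.97% with no v3 peak within 500 bp. In the main setting and those 3 definitions of the regions, the shares in genes and at ends stayed below those of regions of all 3 libraries, and the X share below that of all regions. The count of lists above the median of all genes, 10, was 9 to 12 under the alternatives, but only 9 of 22 lists stayed on 1 side of it throughout. The count of genes without a v3 peak at an end, 489, was 277 with only wider peaks. It was 531 at 500 bp and 454 at 2 kb. None of these alternatives was planned for this count, and they were chosen after seeing the data. Except where fewer peaks enter or a distance is changed by construction, the cause was not tested. No paired analysis was possible because each version has 1 library. Without heights, counts or replicates, a closed site and an open site below the caller's threshold in v3 cannot be told apart.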

Other observations

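Gene families grouped by symbol gave further values for the v3-absent regions, with windows of the span and 5 kb on each side, beside a share of 14.9% over all regions. The cadherins, calcium-dependent adhesion proteins, had a pooled share of 22.5% (670 of 2979 regions) and a median of 15.2% over 23 genes. Neighbours on chromosome 15 differed, with 40.96% (170 of 415) in Cdh18 and 34.8% (192 of 551) in Cdh12, against 3.74% (4 of 107) in Cdh10. Low pooled shares were found for the Hox genes, which pattern the body axis (7 of 202, 3.47%), the ribosomal proteins (12 of 296, 4.05%), the keratins (13 of 253, 5.14%), the chemokines (10 of 189, 5.29%) and the proteasome subunits (31 of 470, 6.596%). Short genes have low shares in general. Genes with at least 5 regions and spans up to 10 kb had a pooled share of 9.46%, which the chemokine interval (2.57 to 9.51%) reached. The potassium channels (13.0%), solute carriers (12.7%), collagens (14.3%) and Zfp zinc finger genes (12.4%) lay near the share of all regions.

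The olfactory receptor genes, 1110 in the table, had 164 v3-absent regions among 1266 (13.0%), and 42 of them had v1 and v2 peaks but no v3 peak within 1 kb of an end, of 121 with v1 and v2 peaks there. Over all protein-coding genes these counts were 489 of 17328 (2.82%). For the ribosomal proteins they were 0 of 70 and for the serpins 7 of 35. Olfactory receptor and serpin genes include close copies, so single genes among them are uncertain.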
